A study of Mus musculus with 4 samples.

Results

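The genes described here encode the replication-dependent core histones H2A, H2B, H3 and H4 and the linker histone H1. They were measured in Dalton's lymphoma ascites (DLA) cells, a tumour line of the mouse passed on by transplantation, here as ascites in the peritoneum. A probe set, the unit of the array that reports 1 value per transcript, was taken as a member when the platform annotation listed at least 1 symbol of the families H1f1 to H1f6, H2ac, H2bc, H3c or H4c, or of the older Hist1h to Hist4h names. This gave 53 probe sets of 23410 annotated ones. Of these, 27 listed 1 gene and 26 listed several, and together they named 63 histone genes. The control group was 2 arrays of DLA cells from unirradiated male Swiss albino mice, 4 to 5 months old. The irradiated group was 2 arrays from mice whose whole body received 2 Gy of electron radiation on day 8 after transplantation. Cells of both groups were harvested 48 h after the exposure. The labels call the arrays biological replicates 1 and 2 of each group. The labels do not say whether an array held the cells of 1 mouse or of several, so p-values measure only the spread between these samples.

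Replication-dependent histone genes supply the protein that packs newly made DNA, and their messenger RNA accumulates in S phase and is degraded when DNA synthesis stops. Most of these messages end in a conserved stem-loop and carry no poly(A) tail. The genes lie in clusters, have no introns, and many encode nearly or fully identical proteins. H2A and H2B genes often lie back to back and share 1 promoter region. The genes are commonly used as a readout of how many cells are synthesising DNA.

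The promoter windows of 3 H2B genes and 1 H4 gene are shown as examples of the sequences before these genes. They are RefSeq windows of assembly GRCm38.p6, from 250 bases before to 50 bases after the annotated start. The capitals mark matches to 4 motifs, searched on both strands. They are the basal promoter box TATAAA, the NF-Y element CCAAT, the octamer ATTTGCAT that POU factors bind, and GGTCCG, the core of the element bound by HINFP in H4 promoters. H2bc8 (chr13:23571150-23571449, plus strand) shares its region with H2ac8, H2bc14 (chr13:21721794-21722093, plus strand) and H2bc9 (chr13:23543395-23543694, minus strand) were the H2B genes with the smallest p in the comparison of groups, and H4c6 (chr13:23551619-23551918, minus strand) was that of the H4 genes. Each window is printed 5′ to 3′ along its gene.
H2bc8: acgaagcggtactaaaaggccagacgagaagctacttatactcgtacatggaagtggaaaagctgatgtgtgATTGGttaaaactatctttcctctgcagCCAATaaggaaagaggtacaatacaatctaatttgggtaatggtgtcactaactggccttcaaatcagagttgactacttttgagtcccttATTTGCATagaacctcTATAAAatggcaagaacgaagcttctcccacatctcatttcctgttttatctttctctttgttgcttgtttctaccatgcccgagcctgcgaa
H2bc14: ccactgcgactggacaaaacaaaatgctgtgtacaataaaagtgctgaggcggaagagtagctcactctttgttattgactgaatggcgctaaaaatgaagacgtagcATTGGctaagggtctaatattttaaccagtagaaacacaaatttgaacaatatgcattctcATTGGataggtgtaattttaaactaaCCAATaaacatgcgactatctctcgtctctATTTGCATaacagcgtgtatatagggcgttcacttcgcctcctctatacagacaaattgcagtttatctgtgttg
H2bc9: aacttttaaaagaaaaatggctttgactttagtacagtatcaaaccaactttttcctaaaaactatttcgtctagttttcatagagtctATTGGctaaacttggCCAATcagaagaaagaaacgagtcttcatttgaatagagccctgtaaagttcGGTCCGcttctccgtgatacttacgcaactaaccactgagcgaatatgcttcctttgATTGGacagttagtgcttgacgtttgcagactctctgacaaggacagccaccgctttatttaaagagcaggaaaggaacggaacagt
H4c6: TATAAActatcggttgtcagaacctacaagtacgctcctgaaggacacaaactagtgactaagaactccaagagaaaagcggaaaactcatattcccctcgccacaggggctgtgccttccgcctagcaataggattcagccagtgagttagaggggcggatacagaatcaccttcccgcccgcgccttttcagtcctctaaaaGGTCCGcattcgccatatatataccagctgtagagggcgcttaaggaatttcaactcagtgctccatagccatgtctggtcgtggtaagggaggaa

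The classes carried different motifs. Windows were matched for 58 of the 63 genes, 59 windows in all. H2bc4, H2bc21, H3c1, H3c7 and H4c14 were not matched. CCAAT was present in 17 of 17 H2A, 15 of 15 H2B, 10 of 10 H3 and 6 of 6 H1 windows, but in 3 of 11 H4 windows, against 37.4% of 32851 windows of all genes. GGTCCG was present in 10 of 11 H4 windows and in 1 H2B and 1 H3 window, against 8.25% of all windows. The octamer was found in 7 of 15 H2B and 6 of 17 H2A windows, and in 0 windows of H1, H3 and H4, against 1.74% of all. TATAAA was found in 34 of the 59 windows, against 13.6% of all. In 9 pairs an H2A and an H2B gene start within 300 bases of each other on opposite strands. Their windows overlap, so the same match can count in both classes. The matches do not overlap each other in the windows printed. In the H2bc8 window the octamer began 59 bases and TATAAA 43 bases before the start, and in that of H2bc14 the octamer began 25 bases before it. The H2bc9 window has no octamer and is the H2B window with GGTCCG, 94 bases before the start, where H4c6 has it at 46. The TATAAA match of H4c6 lies 250 bases before the start, at the edge of the window. The matches describe letters and were not tested as binding sites.

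The value table was log2 intensity made with RMA, and the 4 array medians lay between 6.43 and 6.46. Over the annotated probe sets the control arrays differed from each other with an SD of 0.168 and the irradiated arrays with an SD of 0.428. The label of lymphoma was checked on 14 lymphocyte genes, of which 0 had a mean above the median of annotated probe sets, 6.71. Ptprc, the leukocyte common antigen, measured 5.64 ± 0.01 in control arrays (SD, n = 2), and the B cell gene Ms4a1 measured 3.99 ± 0.00. An array reports no zero, so low values do not show absence. Adult α-globin, measured by probe sets listing both copies of the gene, had log2 differences of −4.825 and −4.465 (limma adjusted p = 0.00729 for both). The lists of neutrophil, erythroid, macrophage and mesothelial markers had median differences of −0.565, −0.0575, 0.01 and −0.1425. Of the neutrophil genes, 3 of 14 were higher. The summed neutrophil intensity was 10.72 and 10.83 in control and 12.47 and 12.26 in irradiated arrays (log2), a sum in which Ly6g was 3.12 higher. For erythroid markers without globins, 3 of 8 were higher, with sums of 10.39 and 10.42 against 10.39 and 10.99. Tfrc, a gene of iron uptake in many cell types, measured 10.69 on irradiated replicate 2 and 9.84 to 9.88 on the others, while Alas2 and Klf1 differed by −0.695 and −0.32. For macrophage markers, 8 of 13 were higher, with sums of 10.40 and 10.42 against 10.57 and 10.43. For mesothelial markers, 2 of 6 were higher, with sums of 12.67 and 12.70 against 12.38 and 11.39, in which the keratin Krt19 measured 12.55 and 12.58 against 12.24 and 11.16. The part of host cells in the histone values was not tested. In bulk RNA, fewer cells of a type and less RNA per cell cannot be told apart.

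Histone probe sets were mostly higher in irradiated cells, by small amounts. Of the 53, 50 had a positive difference and 3 a negative one, where 45.0% of annotated probe sets were positive. The median difference was 0.15 on the log2 scale (1.11-fold), against −0.025 over the annotated probe sets. In 24 members each irradiated array exceeded each control array, and in 1 the reverse held, against 17.9% and 23.6% of annotated probe sets. In limma, 0 members passed the adjusted threshold of 0.05, which 0.0256% of annotated probe sets did, and the smallest adjusted p of a member was 0.462. At an unadjusted p under 0.05, 4 members were higher and 0 lower, against 4.82% and 4.64% of annotated probe sets. The 4 were H3c15, H3c7, H2bc14 and H2bc9. With an array left out, the median difference of all members ran from 0.115 to 0.185. In such fits the group that keeps 2 arrays is the sole source of the residual spread. Counts at the unadjusted threshold are therefore not given for them.

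The probe sets are not independent measurements. The 26 with several symbols carried 8 distinct lists of genes, and 2 of the 53 repeated the values of another member on the 4 arrays. Of the 63 genes, 36 were measured solely by shared probe sets, among them 13 of 17 H2A and 9 of 12 H3 genes. The difference of a shared probe set therefore belongs to a group of genes. Its counts within a class should be read as few measurements.

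**Figure D1:**
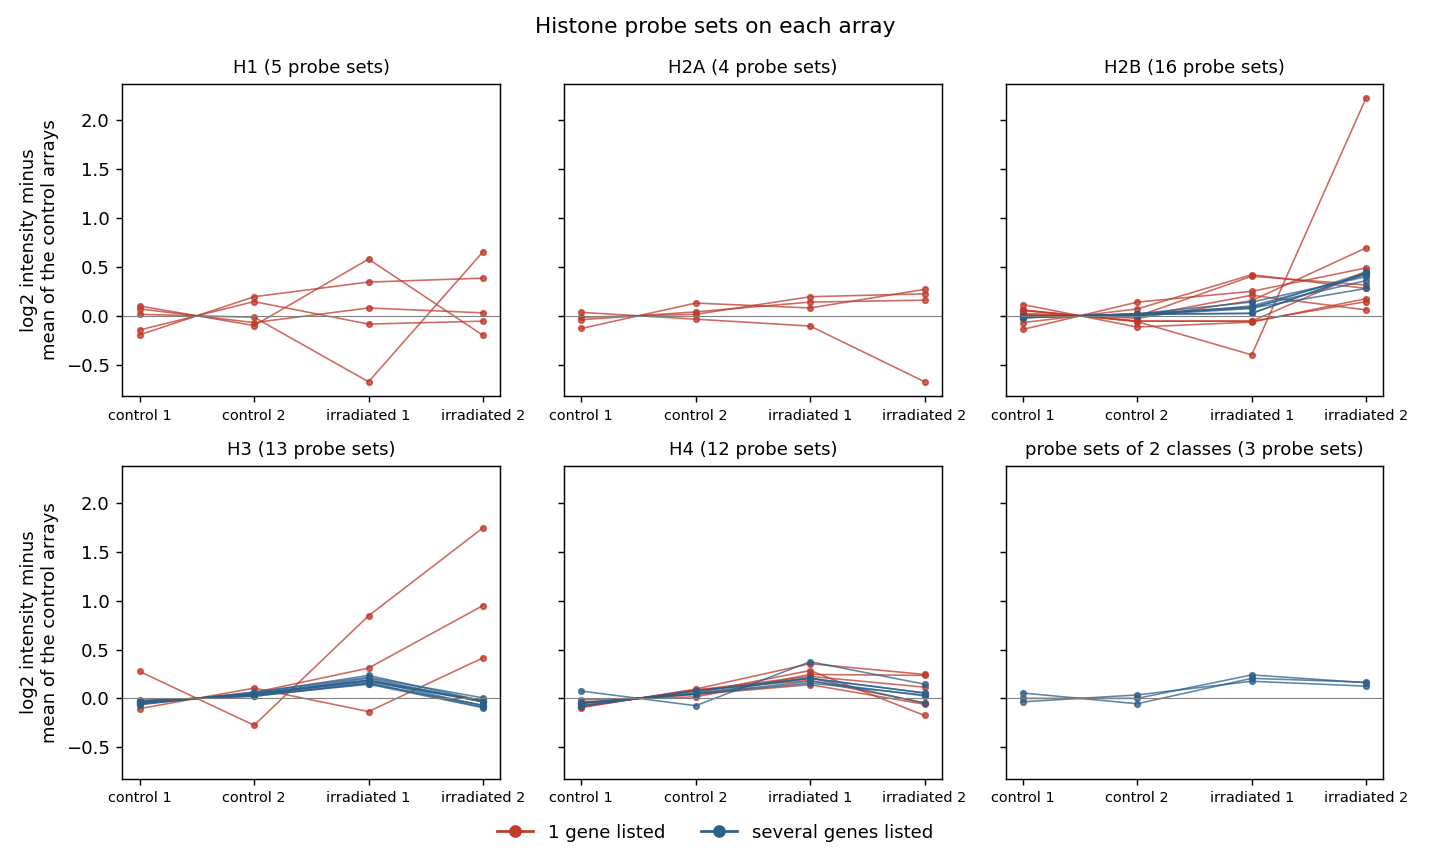
Log2 intensity of each histone probe set minus its mean over the control arrays (vertical axis) on the 4 arrays (horizontal axis), with a panel for each class and a line joining the values of 1 probe set. Shared H2B probe sets (blue) are highest on irradiated replicate 2, shared H3 and H4 probe sets on irradiated replicate 1, and H2bc4 (red, H2B panel) reaches 2.23 above its control mean on irradiated replicate 2.

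The irradiated array with the higher values was not the same in each class. The median difference was 0.055 for H1 (5 probe sets), 0.1625 for H2A (4), 0.245 for H2B (16), 0.08 for H3 (13) and 0.115 for H4 (12), and 0.185 for the 3 probe sets that list 2 classes. For H2B, irradiated replicate 2 exceeded both controls in 16 of 16 probe sets and irradiated replicate 1 in 12, where annotated probe sets did so in 37.4% and 33.4%. For H3 the counts were 12 of 13 on irradiated replicate 1 and 3 on replicate 2, and 10 of these 13 probe sets list the same 12 genes. The 3 H3 probe sets with 1 gene went the other way, as irradiated replicate 2 was above replicate 1 in 3 of 3. H4 showed 12 of 12 on irradiated replicate 1 and 4 on replicate 2. Irradiated replicate 2 was above irradiated replicate 1 for 13 of 16 H2B, 3 of 13 H3 and 0 of 12 H4 probe sets. The same held for 3 of 5 H1 and 3 of 4 H2A probe sets, against 46.3% of annotated ones. These are descriptions of 4 arrays, and the difference between classes was not tested.

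Against the control mean, the H2B median was 0.085 higher on irradiated replicate 1 and 0.41 higher on replicate 2. The H3 median stood 0.185 above the control mean on replicate 1 and at −0.03 on replicate 2, values set by the shared probe sets. Over the 3 H3 genes measured alone the medians were 0.31 and 0.95, positive on both arrays. The H4 medians were 0.2075 and 0.045. H2A had 0.11 and 0.1925, and H1 had 0.08 and 0.03. The control arrays differed from each other by a median of 0.005 for H2B, 0.09 for H3 and 0.105 for H4 (replicate 2 minus replicate 1). For H3 and H4 the group medians of 0.08 and 0.115 were therefore about as large as the difference between the control arrays.

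**Figure D2:**
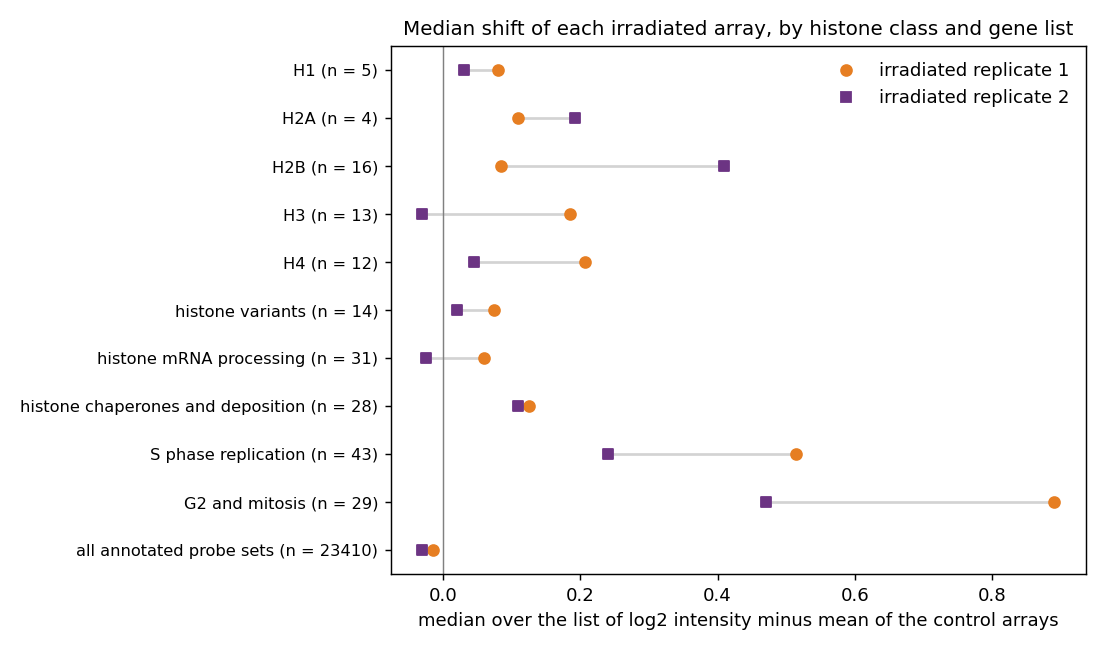
Median, over the probe sets of each histone class or the genes of each list, of log2 intensity minus the mean of the control arrays (horizontal axis), for irradiated replicate 1 (circles) and replicate 2 (squares). H2B stands at 0.41 on replicate 2 and 0.085 on replicate 1, H3 at −0.03 and 0.185, the S phase list at 0.24 and 0.515, and the G2 and mitosis list at 0.47 and 0.89.

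H1 linker histones bind the DNA between nucleosomes and help compact it. Their 5 probe sets each listed 1 gene, and 3 were higher and 2 lower. H1f3 measured 4.99 and 5.38 in control and 5.53 and 5.57 in irradiated arrays. The groups did not overlap, and H1f3 was 0.365 ± 0.16 higher (standard error, limma adjusted p = 0.559). Its mean lay at the 25.8 percentile of annotated probe sets. H1f5 measured 10.06 and 9.86 in control and 10.54 and 9.76 in irradiated arrays, which places the irradiated arrays on both sides of the controls. H1f1 differed by 0.055, with 7.82 and 7.68 against 7.83 and 7.78. The testis-specific H1f6 differed by −0.07, with 5.38 and 5.67 against 5.44 and 5.47, and the groups overlapped.

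H1f2 encodes a linker histone that is also made outside S phase, from polyadenylated messages known from differentiated cells. It measured 9.11 and 9.08 in control and 8.42 and 9.75 in irradiated arrays. The irradiated arrays lay 0.675 below and 0.655 above the control mean, and the group difference was −0.01 ± 0.43 (standard error; limma adjusted p = 0.994). The mean thus hid a spread of 0.94 (SD, n = 2) in the irradiated group against 0.02 in the control group. H1f4 had no probe set of its own and was listed with H2bc6 on 1 probe set, where values of 6.93 and 6.82 in control and 7.08 and 7.04 in irradiated arrays did not overlap (difference 0.185, limma adjusted p = 0.631).

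H2A and H2B form the dimers that flank the H3-H4 tetramer in the nucleosome. Of the H2A genes, 4 were measured alone. H2ac1, a testis form, measured 7.69 and 7.72 in control and 7.90 and 7.93 in irradiated arrays, a difference of 0.21 without overlap (limma adjusted p = 0.590). H2ac15 measured 12.15 and 12.41 against 12.36 and 12.55, with overlap. H2ac8 measured 3.09 and 3.17 against 3.27 and 3.29, and differed by 0.15 without overlap. H2ac4 had the lowest difference of the 53 probe sets, −0.39 ± 0.21 (standard error; limma adjusted p = 0.599). Its values were 8.51 and 8.44 in control and 8.37 and 7.80 in irradiated arrays, so both irradiated arrays were below both controls and most of the difference came from replicate 2. The other H2A genes were read from 2 shared probe sets that list 19 and 20 symbols. Both list the H3 gene H3c4, the variant gene H2ax and H2af-ps2, and the one with 20 symbols also lists the variant gene H2aj. They are thus not a reading of replication-dependent H2A genes alone. The 2 probe sets measured 12.70 and 12.70 in control against 12.94 and 12.86 in irradiated arrays, and 13.06 and 13.13 against 13.27 and 13.22. Both were higher without overlap, by 0.20 and 0.15.

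H2B had 16 of 16 probe sets with a positive difference, as H3 had 13 of 13 and H4 12 of 12. In 12 of the 16 both irradiated arrays exceeded both controls, against 17.9% of annotated probe sets. H2bc14 measured 10.90 and 10.89 in control and 11.30 and 11.21 in irradiated arrays, a 1.28-fold difference (0.36 on the log2 scale, standard error 0.11, limma unadjusted p = 0.0221, adjusted p = 0.496). Both irradiated arrays were clear of the controls by more than the spread within either group. H2bc9 measured 9.92 and 10.06 against 10.41 and 10.27, a 1.27-fold difference (0.35, standard error 0.12, limma unadjusted p = 0.0360, adjusted p = 0.504). For these genes irradiated replicate 1 was the higher array. The testis gene H2bc1 measured 6.61 and 6.89 against 7.0 and 7.24, and differed by 0.37 without overlap (limma adjusted p = 0.544). H2bc21 measured 5.87 and 5.82 against 6.0 and 6.54, a difference of 0.425 without overlap (limma adjusted p = 0.573).

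The 7 shared H2B probe sets, which list 14 or 15 genes each, had differences between 0.18 and 0.27. In 7 of 7 both irradiated arrays exceeded both controls, against 17.9% of annotated probe sets. The probe set 10408070 measured 13.04 and 13.05 in control and 13.12 and 13.49 in irradiated arrays. It shows the form of the other shared ones, with tight controls and the larger step on irradiated replicate 2. Their limma adjusted p-values ran from 0.583 to 0.671. Of the remaining single genes, H2bc18, H2bc3, H2bc8 and H2bc22 differed by 0.135, 0.055, 0.045 and 0.20, and the groups overlapped for all of these but H2bc18.

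H2bc4 had the largest spread between irradiated arrays of the 53 members. It measured 9.68 and 9.56 in control, 9.22 on irradiated replicate 1 and 11.85 on irradiated replicate 2. The latter lay 2.23 above the control mean while replicate 1 lay 0.40 below it. The group difference of 0.915 (1.89-fold) carried an error almost as large (standard error 0.83, limma adjusted p = 0.723) and rested on 1 array. H2bc4 and H1f2 thus had the same order of irradiated arrays, with replicate 1 below and replicate 2 above both controls. H2bc22 had that order as well, at 6.18 and 6.07 in control against 6.07 and 6.58, though its replicate 1 equalled the lower control.

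**Figure D3:**
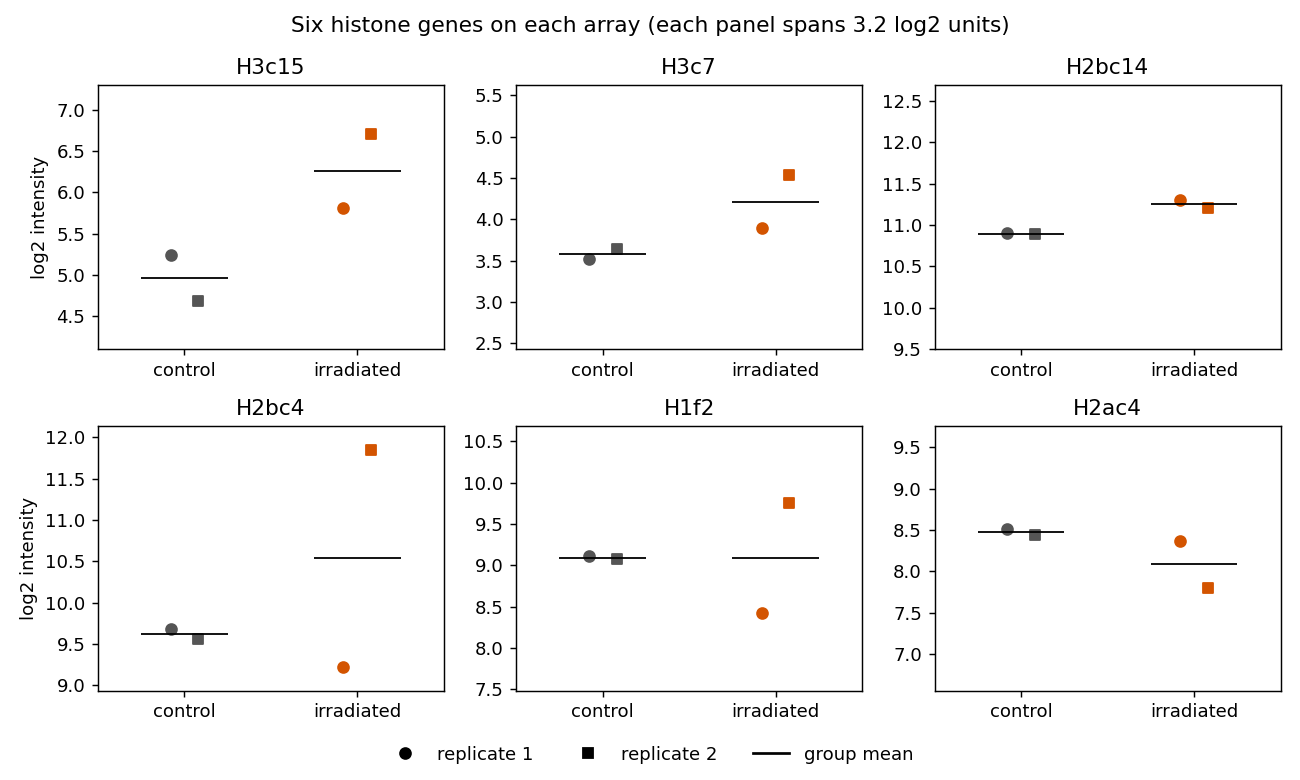
Log2 intensity (vertical axis) of 6 histone genes in the control and irradiated groups, with circles for replicate 1, squares for replicate 2 and lines for group means. H3c15, H3c7 and H2bc14 have both irradiated arrays above both controls, H2ac4 has both below, and H2bc4 (9.22 and 11.85) and H1f2 (8.42 and 9.75) have irradiated arrays on either side of the controls.

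The divergent H2A and H2B genes allowed a look at partners of 1 promoter region. In the RefSeq windows 9 pairs start within 300 bases of each other on opposite strands, and for 2 pairs both genes had a probe set of their own. H2ac8 and H2bc8 start 180 bases apart and differed by 0.15 and 0.045, but H2ac8, at the 2.1 percentile of intensity, gives little reading of its own change. The testis pair H2ac1 and H2bc1 start 281 bases apart and differed by 0.21 and 0.37, and neither gene overlapped between groups. In each pair both partners had positive differences, as 50 of the 53 members had, and 0 of the 4 genes passed the unadjusted threshold in limma.

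H3 and H4 form the central tetramer of the nucleosome. The 10 shared H3 probe sets, each listing the same 12 genes, differed by 0.025 to 0.11, and 0 of them separated the groups. The probe set 10404065 measured 13.77 and 13.81 in control and 13.95 and 13.70 in irradiated arrays, which was above both controls on replicate 1 and below both on replicate 2. The probe set 10408246 measured 13.69 and 13.74 against 13.86 and 13.62, and 10494402 measured 13.51 and 13.64 against 13.79 and 13.58. In the 10, irradiated replicate 1 was above both controls in 10 and replicate 2 in 0.

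Of the H3 genes, 3 were measured alone. H3c15 measured 5.24 and 4.69 in control and 5.81 and 6.71 in irradiated arrays. The groups did not overlap, and the difference of 1.295 (2.45-fold, standard error 0.35) was the largest of the 53 members (limma unadjusted p = 0.0130, adjusted p = 0.462). H3c7 measured 3.52 and 3.64 against 3.89 and 4.53, a 1.55-fold difference (0.63, standard error 0.23, limma unadjusted p = 0.0401, adjusted p = 0.509). H3c4 measured 6.03 and 6.24 against 6.0 and 6.55, and overlapped. Their means over all arrays lay at the 30.7 (H3c15), 6.2 (H3c7) and 42.6 (H3c4) percentiles of annotated probe sets. The fold of H3c7 thus comes from near the array's floor. That of H3c15 also starts low, from a control mean of 4.965, where the median of annotated probe sets was 6.71. The 3 genes are among the 12 of the shared H3 probe sets, where the differences were 0.11 or less. Probe sets of such different intensity give no comparison of size.

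H4 probe sets had differences from 0.04 to 0.30, 12 of 12 positive. In 4 of the 12 both irradiated arrays exceeded both controls, against 17.9% of annotated probe sets. H4c6 measured 10.70 and 10.89 in control and 11.15 and 11.04 in irradiated arrays (difference 0.30, standard error 0.13, limma adjusted p = 0.544). H4c8 measured 6.16 and 6.19 against 6.42 and 6.41, a difference of 0.24 (limma adjusted p = 0.560), with little spread in either group. A probe set of H4c17 and H4c11 measured 6.49 and 6.34 against 6.79 and 6.56 and differed by 0.26. H4c4 measured 13.84 and 13.92 against 14.02 and 13.82, and differed by 0.04. H4c9 differed by 0.17 without overlap, and H4c14 and H4c3 by 0.07 and 0.055 with overlap. The 5 probe sets listing 11 H4 genes differed by 0.08 to 0.13, and in 5 of 5 irradiated replicate 1 was the higher irradiated array.

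**Figure D4:**
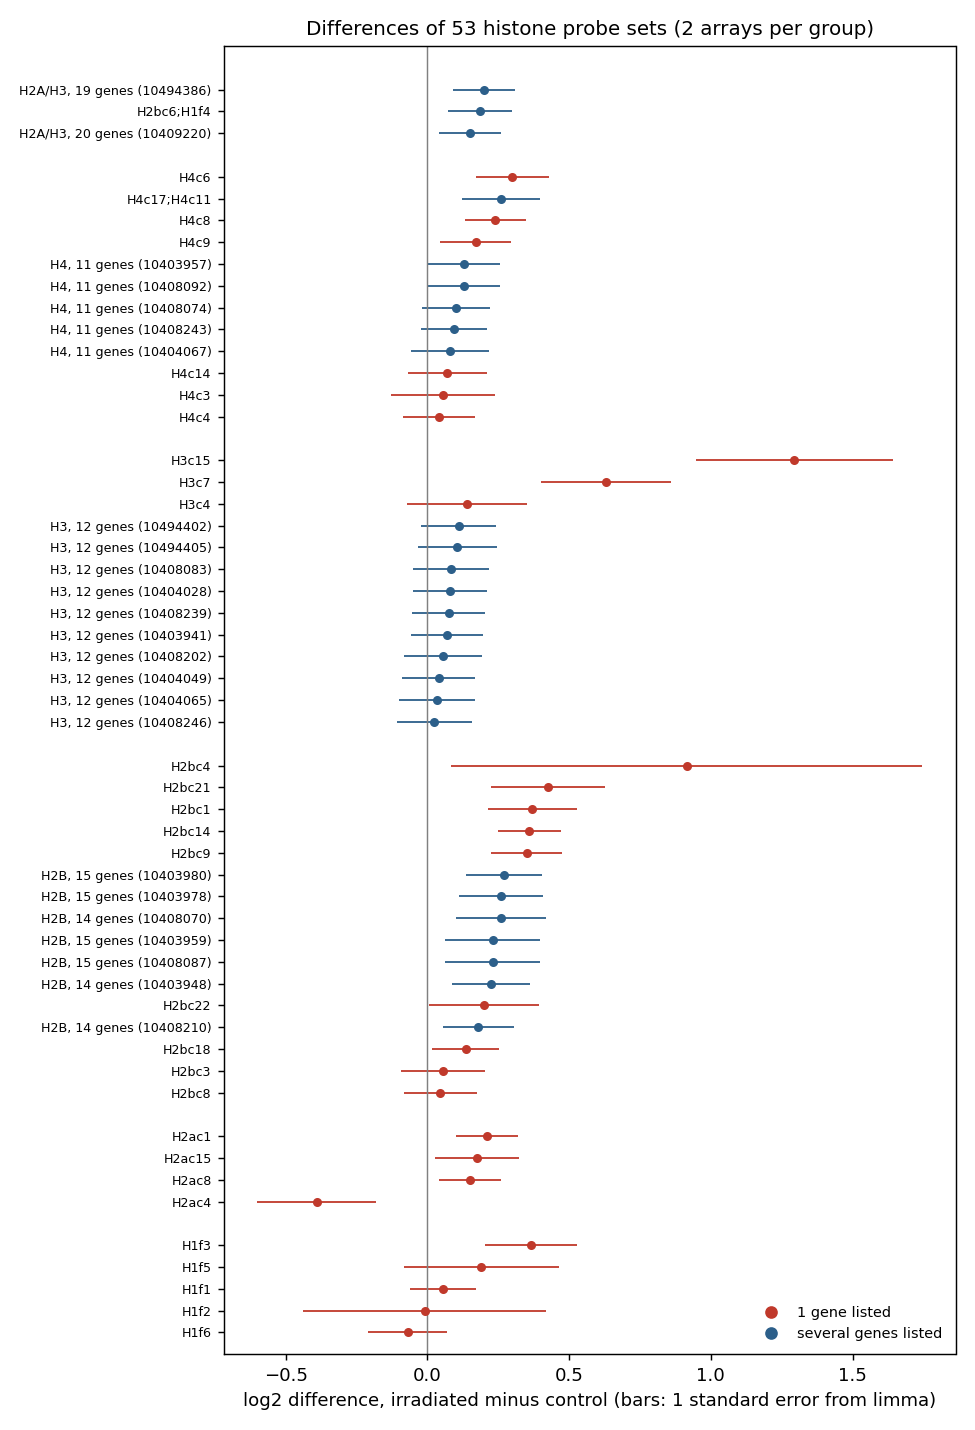
Difference of irradiated minus control log2 intensity (horizontal axis) for each of the 53 histone probe sets, by class, with bars of 1 standard error from limma. Of the 53, 50 lie to the right of 0, H3c15 is farthest at 1.295, and H2ac4 is lowest at −0.39.

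Histone variants encoded outside these families had no common direction over the whole list. Of 14 measured, 7 were higher and 7 lower, with a median of 0.0075, and 3 were higher at an unadjusted p under 0.05 in limma, as were 4.82% of annotated probe sets. In 6 of the 14 the mean was above the median of annotated probe sets. Of these, H2az1, H2az2, H2ax, H2aj and Cenpa were higher and Macroh2a1 differed by −0.025. The other lower variants were dimmer than that median. H2az1, the main H2A.Z gene, measured 11.66 and 11.72 in control and 12.02 and 12.06 in irradiated arrays (difference 0.35, limma adjusted p = 0.496). Cenpa, the centromeric H3 variant, measured 9.91 and 10.02 against 10.98 and 10.30 (0.675, limma adjusted p = 0.504). The third was the H3.3 gene H3f3a, at 5.41 and 5.35 against 5.66 and 6.11 (0.505, limma adjusted p = 0.504). Its mean lay at the 31.1 percentile of annotated probe sets. H2ax, the variant phosphorylated at DNA breaks, differed by 0.30 without overlap (limma adjusted p = 0.588).

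The list of genes that make histone messages had a median near that of the annotated probe sets. Of 31 genes of histone gene transcription and 3′ end processing, 17 were higher and 14 lower with a median of 0.01, and 0 were higher and 1 lower at an unadjusted p under 0.05 in limma, where 4.82% and 4.64% of annotated probe sets were. That gene was Coil, the scaffold of Cajal bodies, at 8.54 and 8.76 in control and 8.12 and 7.99 in irradiated arrays (−0.595, limma adjusted p = 0.442). Slbp, which binds the stem-loop and is also in the replication list, measured 9.64 and 9.48 against 9.95 and 9.43 and overlapped. Npat, the coactivator of histone genes at cyclin E-CDK2 sites, differed by 0.045, and the H4 regulator Hinfp by −0.09. Ccne2, Casp8ap2 and Ncbp2 differed by 0.63, 0.33 and 0.26 without overlap and did not pass.

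Among 28 histone chaperones and deposition genes, 18 were higher and 10 lower, with a median of 0.1175, and 8 were higher and 0 lower at an unadjusted p under 0.05 in limma (4.82% and 4.64% of annotated probe sets). Atrx, a remodeller that places H3.3, measured 9.33 and 9.38 in control and 9.94 and 9.98 in irradiated arrays (0.605, limma adjusted p = 0.374). The importin Ipo9, the H1 and H3 chaperone Nasp and the co-chaperone Dnajc9 differed by 0.51, 0.47 and 0.38 (limma adjusted p = 0.437, 0.483 and 0.496).

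Genes of the replication fork and of nucleotide supply, which act in the same phase as the histone genes, had a larger median difference. Of 43, 38 were higher and 5 lower, with a median of 0.355, and 19 were higher and 0 lower at an unadjusted p under 0.05 in limma, against 4.82% and 4.64% of annotated probe sets. Rrm2, the S phase subunit of ribonucleotide reductase, measured 10.60 and 10.60 in control and 11.80 and 11.33 in irradiated arrays. Its irradiated arrays stood apart from the controls by more than their own spread (0.965, limma adjusted p = 0.374). The list stood 0.515 above the control mean on irradiated replicate 1 and 0.24 on replicate 2. The H1, H3 and H4 class medians had the same order. The H2A and H2B class medians and the median of the H3 genes measured alone had the reverse order. For H1, with medians of 0.08 and 0.03, irradiated replicate 2 was above replicate 1 in 3 of 5 probe sets. The G2 and mitosis list had 29 of 29 higher and a median of 0.67, with 0.89 on replicate 1 and 0.47 on replicate 2. Over all histone probe sets, shared ones included, the median of 0.15 was below both, at 0.175 on replicate 1 and 0.145 on replicate 2. The lists hold no shared probe sets. Over the histone probe sets with 1 symbol the median was 0.175, also below both lists. It stood at 0.185 on irradiated replicate 1 and 0.235 on replicate 2, the reverse of the order in the lists. The difference between the lists was not tested.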

How the data were processed

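Total RNA (300 ng) was labelled with biotin and hybridised to one-colour arrays, per the labels' protocols. The authors deposited log2 intensity values per probe set, made with RMA per the submitters' processing notes, for 35556 probe sets on 4 arrays. RMA fits arrays to a common distribution, so a shift shared by most genes cannot be seen. Names came from the platform's annotation table. Of the probe sets 21789 listed 1 symbol, 1621 several and 12146 none. H1f10, a variant made outside S phase, was not taken as a member.

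Irradiated and control arrays were compared with limma 3.58.1 in R 4.3.3 (lmFit, eBayes, two-sided, 2 residual and 3.11 prior degrees of freedom) over the 23410 annotated probe sets, with Benjamini-Hochberg adjustment and a threshold of 0.05. No filter on dim probe sets was set, so 53 of 53 members were tested. The number of arrays limits the precision, and an exact permutation test of 2 against 2 cannot go below p = 0.333. The procedure was tested on simulated data. Lists took the brightest probe set with 1 symbol of each gene. Class medians carry no test.

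The members, lists and named genes were chosen with earlier results of these data known. Named in full were, in each class, the brightest probe set, the 3 with the smallest p and the extremes of the difference, and up to 4 genes of each list. Genes named beyond this, the motifs and the divergent pairs were chosen after values were seen. Alternatives were other sets of probe sets, filters, normalizations, variance models, a replicate block and leaving out each array.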

Additional observations from a re-analysis of the deposited data

How the results depend on the processing

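With 2 arrays per group, single arrays weigh on the counts and medians. The count of members past the adjusted threshold in limma was 0 in 15 of 15 alternatives. The 4 members higher at an unadjusted p under 0.05 in limma became 2 when every row of the value table was fitted. They became 2 after a filter at the median of intensity and 7 after cyclic loess. The count of lower members was 0 in the alternatives that kept 4 arrays. The share of annotated probe sets past that threshold was not counted in these alternatives. Of the 4 higher members, H3c15 and H3c7 lay below the median of intensity, so the filter there removed them. The median of all members was 0.185 with the brightest probe set per gene and 0.19 after cyclic loess, and ran from 0.115 to 0.185 with an array left out. With an array left out, the class medians ran from 0.03 to 0.125 for H1, 0.0775 to 0.2075 for H2A, 0.085 to 0.41 for H2B, −0.03 to 0.185 for H3 and 0.045 to 0.2075 for H4. The H3 median turned negative without irradiated replicate 1. It was 0.63 over probe sets with 1 symbol and 0.385 with the brightest probe set per gene, where the shared H3 probe sets were left out or reduced to 1. The H2A median was 0.11 after quantile normalization, and the cause was not tested. In the other alternatives that kept 4 arrays, class medians stayed within the spread between replicates. The medians were above 0 in 15 of 15 alternatives for H1, H2A, H2B, H4 and all members, and in 14 of 15 for H3. Fitting every row, the variance models and the replicate block leave each member's difference unchanged, so these alternatives could not move a median. For H1 and H2A, whose members each list 1 gene, neither could the sets with 1 symbol or 1 probe set per gene.

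The labels number the replicates 1 and 2 in both groups. The deviations of same-numbered arrays from their group means correlated with r = 0.0042 over annotated probe sets and r = −0.253 over the histone members. The probe sets are not independent in either set, and the numbers were not taken as pairs. With the replicate block the counts were 0 at the adjusted threshold, 4 higher and 0 lower. The block cannot change a difference when each replicate number occurs once in each group. The medians of all members and of each class were therefore those of the main fit, which says nothing on their stability.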
